A study of Homo sapiens with 9 samples.

Results

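The genes described here make up the unfolded protein response, the folding machinery of the endoplasmic reticulum (ER) and ER-associated degradation (ERAD), the route by which misfolded proteins are pulled out of the ER and destroyed. They were taken from a list of 43 symbols, which stand for 42 genes because VIMP is an older name of SELENOS, and a gene was measured if a probe set of the array was annotated to it alone. This held for 35 of the 42, each with 1 such probe set, out of 14413 single-gene probe sets among 17859 in all. PDIA5, PDIA6 and EDEM2 also stood on a probe set that names several genes, which was not used for them. HSP90B1, PDIA3, ATF6B and SELENOK stood only on probe sets that name several genes, and P4HB, CANX and SEC61B had no single-gene probe set in the annotation used, so these 7 were not analysed here. The cells were SKOV3, an established human ovarian tumour line kept in medium with serum. For 3 days they were given 50 µM peracetylated 4-deoxy-GlcNAc (Ac-4-deoxy-GlcNAc, an N-acetylglucosamine derivative without the hydroxyl group at carbon 4), 50 µM peracetylated GlcNAc (Ac-GlcNAc), or no compound. Acetyl groups let such sugars cross the cell membrane. Each group had 3 arrays, each with RNA from a separate flask, and the untreated flasks are not said to have received the solvent of the compounds.

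When unfolded proteins build up in the ER, 3 membrane sensors respond: IRE1 (gene ERN1), which splices XBP1 mRNA, ATF6, whose cut fragment becomes a transcription factor, and PERK (EIF2AK3), which slows translation and favours ATF4. XBP1 and ATF6 raise genes for chaperones and ERAD through short promoter elements, among them the ER stress element (ERSE). Splicing of XBP1, cleavage of ATF6 and phosphorylation of PERK are not seen in the level of a transcript, so the values below concern mRNA amounts only. The drug tunicamycin, which blocks N-glycosylation, is a standard inducer of this response, and the ER is where N-glycans on new proteins are built and checked.

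The promoters of the called members that hold an ERSE or its variant ERSE-II are printed because these elements are the known docking sites of ATF6 and XBP1. Each run is the RefSeq window of 250 bases before to 50 bases after the transcription start, 5′ to 3′ on the gene's strand, on build GRCh38.p14. Capitals mark the fixed letters of the element: CCAAT and CCACG with 9 bases between them for ERSE, ATTGG and CCACG with 1 base between them for ERSE-II, or their reverse complements.
HSPA5 (chr9:125241294-125241593, minus strand): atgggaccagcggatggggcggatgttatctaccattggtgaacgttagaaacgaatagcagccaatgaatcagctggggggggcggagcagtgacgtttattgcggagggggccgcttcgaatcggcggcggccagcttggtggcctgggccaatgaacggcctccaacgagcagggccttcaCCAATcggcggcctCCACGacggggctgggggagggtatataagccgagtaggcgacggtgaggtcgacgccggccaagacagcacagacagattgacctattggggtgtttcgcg
HERPUD1 (chr16:56931892-56932191, plus strand): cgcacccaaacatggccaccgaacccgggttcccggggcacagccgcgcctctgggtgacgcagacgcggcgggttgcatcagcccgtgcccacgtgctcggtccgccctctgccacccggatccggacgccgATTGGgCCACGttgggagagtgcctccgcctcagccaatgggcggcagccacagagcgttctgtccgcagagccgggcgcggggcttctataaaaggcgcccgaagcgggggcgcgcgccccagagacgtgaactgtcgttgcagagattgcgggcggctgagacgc
HYOU1 (chr11:119057156-119057455, minus strand): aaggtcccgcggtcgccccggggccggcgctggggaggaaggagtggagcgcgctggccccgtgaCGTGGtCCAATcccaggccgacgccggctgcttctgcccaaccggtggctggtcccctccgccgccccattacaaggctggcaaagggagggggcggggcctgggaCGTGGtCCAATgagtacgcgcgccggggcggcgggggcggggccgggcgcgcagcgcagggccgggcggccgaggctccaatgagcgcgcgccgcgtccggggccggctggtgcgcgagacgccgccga
SDF2L1 (chr22:21642052-21642351, plus strand): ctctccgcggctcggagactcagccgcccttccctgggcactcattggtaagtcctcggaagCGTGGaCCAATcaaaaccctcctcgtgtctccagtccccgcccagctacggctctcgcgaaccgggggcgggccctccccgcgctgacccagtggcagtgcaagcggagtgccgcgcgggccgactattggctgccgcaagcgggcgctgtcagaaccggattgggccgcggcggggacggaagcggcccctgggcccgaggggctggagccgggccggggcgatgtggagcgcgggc
In HSPA5 the ERSE lies on the gene's strand at bases -66 to -48, counting the start base as 0. In HERPUD1 the ERSE-II is at -117 to -107, and HYOU1 carries it on the opposite strand at both -185 to -175 and -79 to -69. In SDF2L1 it is on the opposite strand at -188 to -178.

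As a check of the cells and arrays, all 8 markers of epithelial ovarian tumour cells (keratins, EPCAM, ERBB2, MSLN, MUC1) lay between 6.89 and 12.30 on the log2 scale, while 3 leukocyte markers including PTPRC lay between 3.98 and 5.35 and 3 endothelial markers between 4.37 and 5.75. The 2 measured fibroblast markers, DCN and LUM, spanned 4.02 to 7.31, and LUM alone 6.49 to 7.31, which overlaps the lowest epithelial marker, MSLN (from 6.89). The mean over the epithelial markers was 9.24 to 9.36 on Ac-4-deoxy-GlcNAc arrays, 9.40 to 9.54 on Ac-GlcNAc arrays and 9.58 to 9.59 on untreated arrays, and KRT7, KRT19 and MUC1 fell with Ac-4-deoxy-GlcNAc by 0.46, 0.49 and 0.72. MUC1 also fell with Ac-GlcNAc, by 0.55 relative to untreated (adjusted p = 0.0299). The means over the endothelial markers were 5.03 to 5.11, 4.90 to 5.01 and 4.89 to 5.02 in the same order, with PECAM1 higher by 0.41 with Ac-4-deoxy-GlcNAc against untreated cells. For the leukocyte markers they were 4.57 to 4.74, 4.55 to 4.74 and 4.70 to 4.86, and for the fibroblast markers 5.39 to 5.57, 5.38 to 5.62 and 5.80 to 5.95, with LUM lower by 0.46. The part of these shifts in the results below was not tested. The narrowest array was untreated replicate 2: its log2 values had an SD of 1.92, while the other 8 arrays had SDs of 2.075 to 2.179. For the measured genes of the list, where leaving it out ended a call or moved a called value by over 1.5 times, the value without it is given.

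Ac-4-deoxy-GlcNAc changed 10 of the 35 measured genes: 9 were higher than in untreated cells and 1, DNAJB9, was lower. The higher ones were the chaperones HSPA5 and HYOU1, the co-chaperones DNAJC3 and SDF2L1, the disulfide enzyme PDIA4 and the ERAD genes HERPUD1, DERL2, SELENOS and SEL1L, by 0.37 to 0.80 on the log2 scale. Genes were called at an adjusted p under 0.05 from limma, Benjamini-Hochberg adjusted over all probe sets. Over the whole array 11.0% of probe sets were called in this comparison, 5.38% higher and 5.64% lower, beside 28.6% of the members. The median log2 difference was 0.20 over the 35 members and -0.05 over all probe sets, and 28 of 35 members had a positive difference, beside 41.9% of all probe sets. Of the related lists given below, the PERK and ATF4 arm and the further translocon genes had medians of 0.24 and 0.16. The other related lists had medians of -0.02 to 0.01. An unadjusted p under 0.05 was reached by 19 members, beside 31.2% of all probe sets. On 21 of the 35 (60.0%) the 3 Ac-4-deoxy-GlcNAc arrays and the 3 untreated arrays did not overlap, beside 32.1% of all probe sets. Without untreated replicate 2, 8 members were called, beside 5.62% of all probe sets, and the members' median was 0.19. Without Ac-4-deoxy-GlcNAc replicate 3 these values were 7, 3.38% and 0.13. Among probe sets above the 25th percentile of mean level, a filter that all 35 members passed, the median of all was 0.01, with the members still at 0.20. Of those probe sets 15.3% were called, and the count of members called was again 10.

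**Figure D1:**
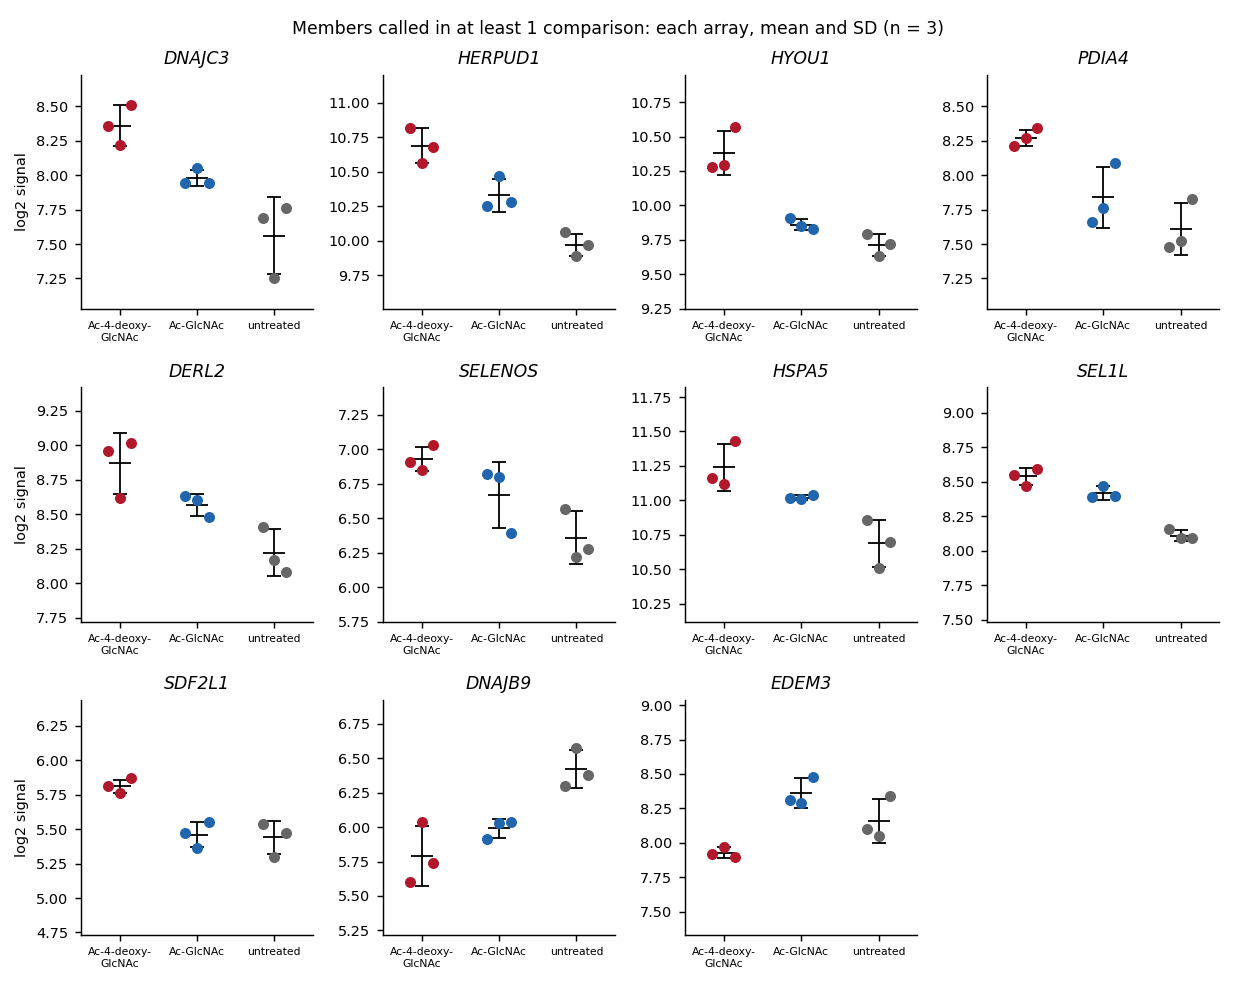
Log2 signal (vertical axis, 1 panel a gene) of the 11 genes called in at least 1 comparison, by group on the horizontal axis. Points are single arrays, bars the mean and SD of 3 arrays. In 9 panels the Ac-4-deoxy-GlcNAc arrays lie above the untreated ones, and for DNAJB9 and EDEM3 they lie lower. All panels span the same number of log2 units.

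Among the chaperones of the ER lumen, HYOU1, a large Hsp70-type protein that recharges HSPA5 with nucleotide, had log2 levels of 10.28, 10.29 and 10.57 with Ac-4-deoxy-GlcNAc, 9.91, 9.85 and 9.83 with Ac-GlcNAc, and 9.79, 9.63 and 9.72 in untreated cells. The 3 Ac-4-deoxy-GlcNAc arrays stood apart above all 6 others. HYOU1 exceeded the untreated level 1.59-fold (log2 0.67, SE 0.10, adjusted p = 0.00214). Relative to Ac-GlcNAc the ratio was 1.43-fold (log2 0.52, SE 0.10, adjusted p = 0.0178). HSPA5, known as BiP, is the main Hsp70 of the ER and holds the 3 sensors inactive. Its levels were 11.16, 11.12 and 11.43 with Ac-4-deoxy-GlcNAc, 11.02, 11.01 and 11.04 with Ac-GlcNAc, and 10.86, 10.51 and 10.70 in untreated cells. The 3 groups did not overlap in any pair, in the order Ac-4-deoxy-GlcNAc, Ac-GlcNAc, untreated. HSPA5 under Ac-4-deoxy-GlcNAc was 1.46-fold higher than in untreated cells (log2 0.55, SE 0.11, adjusted p = 0.0102), and leaving out Ac-4-deoxy-GlcNAc replicate 3 ended the call (adjusted p = 0.0544). CALR, the soluble lectin chaperone calreticulin, ranged from 11.76 to 12.25 over the 9 arrays and differed by 0.30 (95% interval 0.09 to 0.50, adjusted p = 0.0634), which did not pass. CALR passed with trend and robust options (adjusted p = 0.0208) and without untreated replicate 1.

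The J-domain co-chaperones, which deliver clients to HSPA5, did not move as one. DNAJC3, also an inhibitor of PERK, had the largest difference of all members, with levels of 8.36, 8.22 and 8.51 with Ac-4-deoxy-GlcNAc, 7.94, 8.05 and 7.94 with Ac-GlcNAc, and 7.69, 7.25 and 7.76 in untreated cells. Ac-4-deoxy-GlcNAc cells had 1.74-fold more than untreated cells (log2 0.80, SE 0.13, adjusted p = 0.00326), and the low untreated value of 7.25 was on replicate 2. Without that array the difference was 0.64 (adjusted p = 0.00605). SDF2L1, which has no J domain but works with DNAJB11 on HSPA5 clients, had levels of 5.81, 5.76 and 5.87 with Ac-4-deoxy-GlcNAc, 5.47, 5.36 and 5.55 with Ac-GlcNAc, and 5.54, 5.30 and 5.47 in untreated cells. The Ac-4-deoxy-GlcNAc arrays were again above all 6 others, and the difference from untreated was 0.37 (SE 0.10, adjusted p = 0.0292). All SDF2L1 values lay below the array medians of 6.581 to 6.655, and its signal over background could not be assessed. The SDF2L1 call was lost without untreated replicate 2 (adjusted p = 0.0777), untreated replicate 3 (0.0535), Ac-4-deoxy-GlcNAc replicate 1 (0.07) or Ac-4-deoxy-GlcNAc replicate 3 (0.113), and in a fit of the 6 compared arrays alone (adjusted p = 0.0683).

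DNAJB9, known as ERdj4, is an XBP1-dependent co-chaperone that also restrains IRE1, and it went the other way. Its levels were 5.60, 6.04 and 5.74 with Ac-4-deoxy-GlcNAc, 5.91, 6.03 and 6.04 with Ac-GlcNAc, and 6.30, 6.57 and 6.38 in untreated cells. All 3 untreated arrays were above the 6 treated ones. Relative to untreated cells DNAJB9 fell by 0.63 (SE 0.12, 95% interval -0.88 to -0.37, adjusted p = 0.00708), a call that held whichever of the 6 arrays was omitted. With array SD as a covariate its difference was -0.55 and did not pass (adjusted p = 0.0598). With Ac-GlcNAc the difference was -0.42 (95% interval -0.68 to -0.17, adjusted p = 0.0891). All 9 of its values lay below the array medians of 6.581 to 6.655, and without scanner files its signal over background could not be assessed. DNAJB11, which binds unfolded clients with HSPA5, ranged from 8.95 to 9.37 and differed from untreated by 0.22 with Ac-4-deoxy-GlcNAc (95% interval 0.01 to 0.42, adjusted p = 0.138). DNAJC10, a co-chaperone that reduces disulfide bonds, ranged from 10.24 to 10.53 and differed by 0.03 (-0.19 to 0.26).

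PDIA4, an ER disulfide isomerase known as ERp72, was the called member among the 5 measured enzymes of disulfide formation. Its levels were 8.21, 8.27 and 8.34 with Ac-4-deoxy-GlcNAc, 7.66, 7.76 and 8.09 with Ac-GlcNAc, and 7.48, 7.52 and 7.83 in untreated cells. The Ac-4-deoxy-GlcNAc arrays had an SD of 0.06 and lay above all others, and replicate 3 was the highest array in each group. PDIA4 was 1.58-fold higher than in untreated cells (log2 0.66, SE 0.13, adjusted p = 0.00714). The isomerase PDIA6 ranged from 10.83 to 11.27 and differed by 0.29 (95% interval 0.07 to 0.51, adjusted p = 0.0786), and PDIA5 ranged from 7.73 to 8.17 and differed by 0.08 (-0.17 to 0.33). The oxidases that recharge these enzymes were ERO1A, between 10.43 and 10.87, with a difference of 0.27 (0.06 to 0.48, adjusted p = 0.0885), and ERO1B, between 6.70 and 7.05, with 0.23 (0.03 to 0.42, adjusted p = 0.111). None of these 4 passed in the main fit. With trend and robust options PDIA6 (adjusted p = 0.0392) and ERO1A (0.0497) did.

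The ER stress proteins CRELD2 and MANF, both released from cells in part, were not called. CRELD2 ranged from 6.11 to 6.64 with a difference of 0.21 (95% interval -0.02 to 0.45), its highest value on Ac-4-deoxy-GlcNAc replicate 3. MANF ranged from 9.07 to 9.43 and had a negative difference with each compound, -0.15 (-0.35 to 0.05) with Ac-4-deoxy-GlcNAc and -0.18 (-0.38 to 0.02) with Ac-GlcNAc. On MANF the 3 untreated arrays did not overlap with either treated group.

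Of the 12 measured ERAD genes, 4 rose with Ac-4-deoxy-GlcNAc against untreated, 0 fell and 8 were not called. The share called was 33.3%, beside 11.0% of all probe sets. All 4 belong to the membrane complex around the ubiquitin ligase SYVN1 (HRD1), which carries proteins out of the ER. SYVN1 itself and UBE2J1, which serves it, were not called, so this trait does not set the 4 apart. HERPUD1, which helps to assemble that complex, had levels of 10.82, 10.56 and 10.68 with Ac-4-deoxy-GlcNAc, 10.25, 10.47 and 10.28 with Ac-GlcNAc, and 10.06, 9.89 and 9.97 in untreated cells. The 3 groups did not overlap, and Ac-GlcNAc lay between the other two. Ac-4-deoxy-GlcNAc cells had 1.64-fold more HERPUD1 signal than untreated cells (log2 0.71, SE 0.10, adjusted p = 0.00164, the smallest among the members).

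DERL2, or derlin-2, a channel-like protein of the same complex, had levels of 8.96, 8.62 and 9.02 with Ac-4-deoxy-GlcNAc, 8.63, 8.60 and 8.48 with Ac-GlcNAc, and 8.41, 8.17 and 8.08 in untreated cells. Both treated groups lay above the untreated arrays and overlapped each other. DERL2 under Ac-4-deoxy-GlcNAc was 1.57-fold higher than untreated (log2 0.65, SE 0.12, adjusted p = 0.00697). SEL1L, the adaptor that holds substrates to SYVN1, had values of 8.55, 8.47 and 8.59 with Ac-4-deoxy-GlcNAc, 8.39, 8.47 and 8.40 with Ac-GlcNAc, and 8.16, 8.09 and 8.09 in untreated cells. Here too both treated groups were above untreated, and SEL1L was 1.34-fold higher than untreated under Ac-4-deoxy-GlcNAc (SDs of 0.04 to 0.06 in the groups, log2 0.42, SE 0.09, adjusted p = 0.0103). SELENOS, a selenoprotein that links the complex to the p97 ATPase, had levels of 6.91, 6.85 and 7.03 with Ac-4-deoxy-GlcNAc, 6.82, 6.80 and 6.39 with Ac-GlcNAc, and 6.57, 6.22 and 6.28 in untreated cells. The Ac-4-deoxy-GlcNAc arrays were above all others, and the other groups overlapped. SELENOS was 1.49-fold higher than untreated (log2 0.57, SE 0.13, adjusted p = 0.0169), a call lost on omitting Ac-4-deoxy-GlcNAc replicate 3 (adjusted p = 0.0814) or untreated replicate 2 (adjusted p = 0.0537).

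The ligase SYVN1 itself ranged from 9.15 to 9.45 over the 9 arrays and differed from untreated by 0.05 with Ac-4-deoxy-GlcNAc (95% interval -0.17 to 0.27). UBE2J1, the ubiquitin-conjugating enzyme that serves it, ranged from 9.24 to 9.62 and differed by 0.06 (-0.17 to 0.29). DERL1 ranged from 10.30 to 10.66 with a difference of 0.19 (-0.03 to 0.40), and DERL3 from 5.43 to 5.90 with 0.13 (-0.08 to 0.33). OS9, a lectin that reads trimmed N-glycans for ERAD, ranged from 9.80 to 10.10 with a difference of 0.20 (0.01 to 0.38, adjusted p = 0.141). None of these 5 was called.

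The EDEM proteins trim mannose from N-glycans of misfolded proteins, which marks them for ERAD. None was called against untreated cells. EDEM1 ranged from 8.20 to 8.86 and EDEM2 from 8.57 to 9.06, with differences of -0.05 (95% interval -0.33 to 0.23) and -0.06 (-0.33 to 0.20) for Ac-4-deoxy-GlcNAc. EDEM3 had levels of 7.92, 7.97 and 7.90 with Ac-4-deoxy-GlcNAc, 8.31, 8.29 and 8.48 with Ac-GlcNAc, and 8.10, 8.05 and 8.34 in untreated cells. The Ac-4-deoxy-GlcNAc arrays were below the other 6, and the difference from untreated was -0.23 (-0.45 to -0.01, adjusted p = 0.144). With array weights it was -0.31 and passed (adjusted p = 0.0495).

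The sensors and transcription factors were not called in any of the 3 comparisons. XBP1 had levels of 9.30, 9.57 and 9.53 with Ac-4-deoxy-GlcNAc, 9.63, 9.60 and 9.49 with Ac-GlcNAc, and 9.41, 9.49 and 9.35 in untreated cells, and the groups overlapped. Its difference for Ac-4-deoxy-GlcNAc against untreated was 0.05 (95% interval -0.17 to 0.27), and the array value does not separate spliced from unspliced XBP1. ATF6 had 9.89, 10.05 and 9.87 with Ac-4-deoxy-GlcNAc, 9.97, 9.94 and 10.07 with Ac-GlcNAc, and 9.86, 9.87 and 10.04 in untreated cells. Its groups also overlapped, with a difference of 0.01 (-0.19 to 0.22). ERN1 had 6.38, 6.33 and 6.50 with Ac-4-deoxy-GlcNAc, 6.38, 6.30 and 6.20 with Ac-GlcNAc, and 6.21, 6.07 and 6.08 in untreated cells. The Ac-4-deoxy-GlcNAc and untreated arrays of ERN1 did not overlap, and its difference of 0.28 (0.08 to 0.49, adjusted p = 0.0684) passed only after cyclic loess (adjusted p = 0.0298) and without untreated replicate 1. CREB3L2, a membrane-bound transcription factor related to ATF6, differed by 0.02 (-0.18 to 0.23), and WFS1, an ER membrane protein that curbs ATF6, by -0.09 (-0.39 to 0.21).

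For entry into and exit from the ER, SEC61A1, the pore of the translocon, had the narrowest range of any member (10.26 to 10.42) and a difference of -0.05 (95% interval -0.24 to 0.14) with Ac-4-deoxy-GlcNAc. SSR1, a subunit of the translocon-associated complex, ranged from 11.00 to 11.40 with 0.10 (-0.13 to 0.33). TMED2, a cargo receptor of the p24 family, ranged from 11.93 to 12.31 with 0.23 (0.03 to 0.43, adjusted p = 0.117). None of the 3 was called in the main fit. TMED2 passed with trend and robust options (adjusted p = 0.0486) and with array weights (0.0483).

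**Figure D2:**
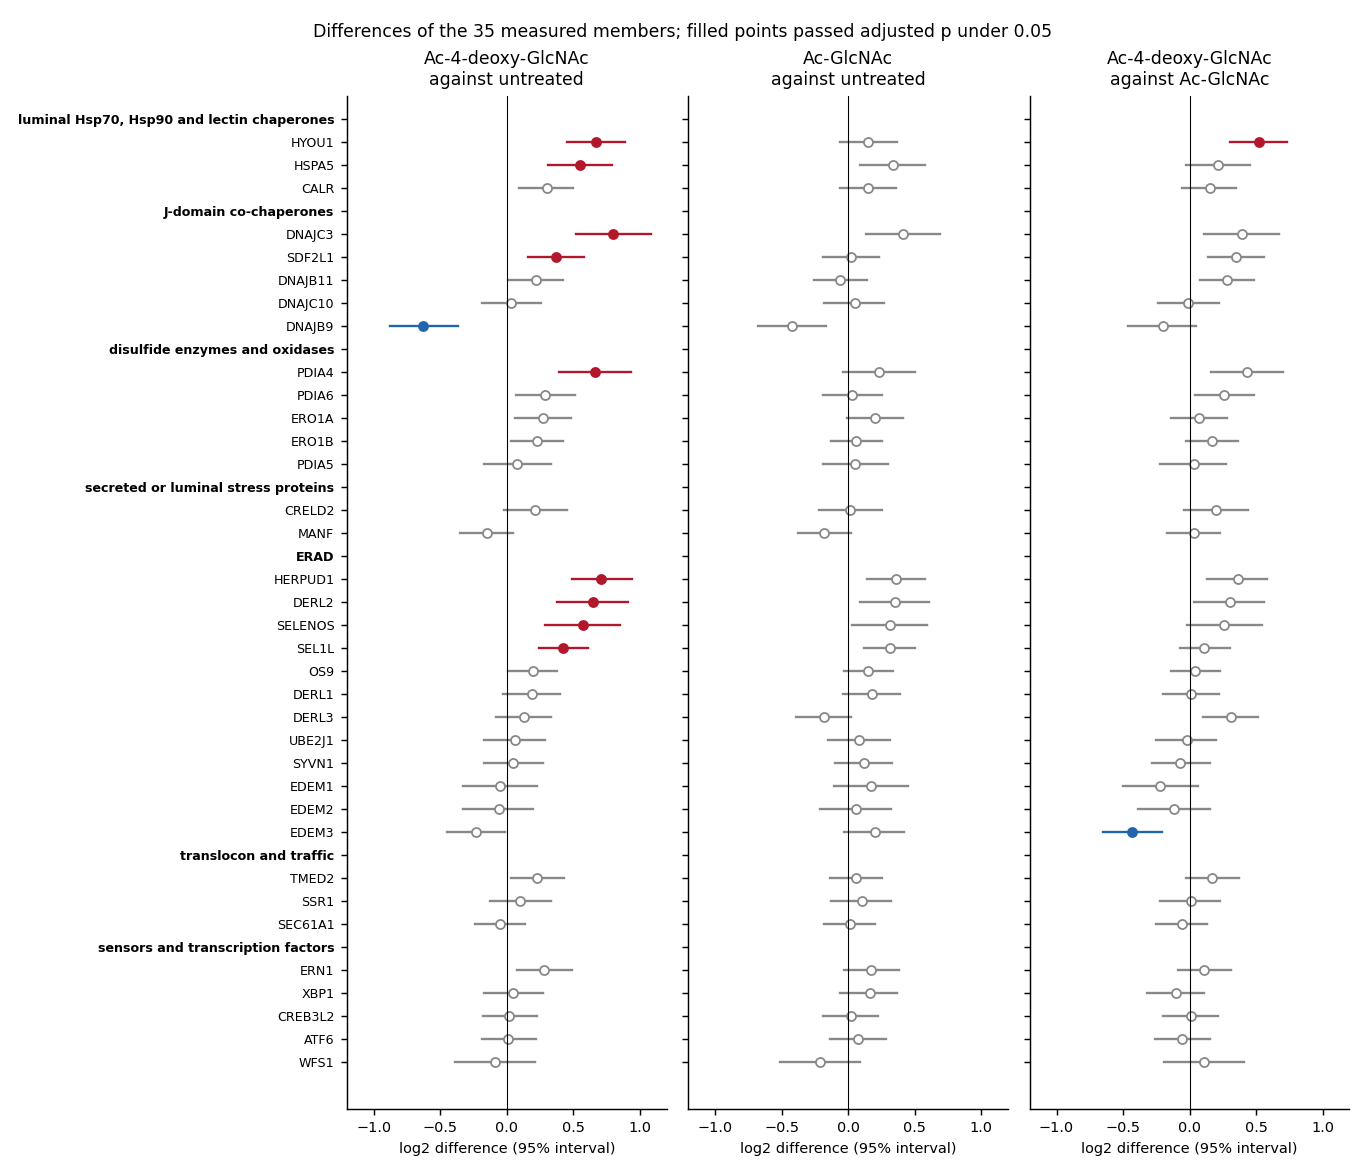
Log2 difference and 95% interval (horizontal axis) of each of the 35 measured genes (rows, by role) in the 3 comparisons (panels). Filled points passed an adjusted p under 0.05, red higher and blue lower: 10 for Ac-4-deoxy-GlcNAc against untreated, 0 for Ac-GlcNAc against untreated and 2 between the compounds.

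With Ac-GlcNAc, 0 of the 35 genes were called against untreated cells by limma, beside 0.442% of all probe sets, and 7 had an unadjusted p under 0.05, beside 26.4%. The median log2 difference of the members was 0.10, beside -0.02 over all probe sets. It was 0.05 without untreated replicate 2, 0.03 after cyclic loess, 0.06 with array weights and 0.01 with array SD as a covariate, where the median of all probe sets was between -0.03 and 0.00. Among probe sets above the 25th percentile of mean level, the members had 0.10 and all probe sets 0.05. Single differences ran from -0.42 (DNAJB9) to 0.41 (DNAJC3). A positive difference was found for 30 of 35 members, beside 47.3% of all probe sets, while groups that did not overlap were found for 12 (34.3%), beside 32.3%. Most genes in each of the related ER lists given below had a positive difference as well, so this lean is not particular to the members. The sign changed for 11 members after cyclic loess and for 11 with array SD as a covariate. The 4 ERAD genes that rose with Ac-4-deoxy-GlcNAc had differences of 0.36 for HERPUD1 (95% interval 0.14 to 0.58, adjusted p = 0.0909), 0.35 for DERL2 (0.09 to 0.61, adjusted p = 0.115), 0.31 for SELENOS (0.03 to 0.59, adjusted p = 0.157) and 0.31 for SEL1L (0.12 to 0.50, adjusted p = 0.0891). HSPA5 differed by 0.34 (0.09 to 0.58, adjusted p = 0.109) and DNAJC3 by 0.41 (0.13 to 0.69, adjusted p = 0.0992). Without untreated replicate 2 these were 0.25 for HSPA5 (adjusted p = 0.362) and 0.25 for DNAJC3 (adjusted p = 0.331). By contrast the differences of SDF2L1 (0.02, -0.19 to 0.23), HYOU1 (0.15, -0.06 to 0.37) and PDIA4 (0.23, -0.04 to 0.50) had intervals that held 0. With array weights 7 members were called, beside 9.85% of all probe sets: HSPA5, HERPUD1, SEL1L, DERL2 and SELENOS higher and DNAJB9 and MANF lower. Without untreated replicate 1 DNAJB9 was called, beside 7.61% of all probe sets. The 2 comparisons with untreated cells share the same 3 untreated arrays, so their values are set side by side and not related to each other.

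The compounds differ at carbon 4, where Ac-GlcNAc carries an acetylated hydroxyl group, and were compared at the same dose and time. They differed at 2 of 35 members, beside 2.38% of all probe sets (0.896% in the higher and 1.48% in the lower direction). Among probe sets above the 25th percentile of mean level 4.6% were called, with the same 2 members. An unadjusted p under 0.05 was reached by 10 members, beside 13.6% of all probe sets, and groups did not overlap for 13 (37.1%), beside 21.2%. HYOU1 was higher with Ac-4-deoxy-GlcNAc by 0.52 (95% interval 0.30 to 0.73), and the call was lost on omitting any one Ac-GlcNAc array (adjusted p = 0.0591, 0.079 and 0.0749) or Ac-4-deoxy-GlcNAc replicate 3 (0.07). EDEM3 fell by 0.43 (-0.65 to -0.21, adjusted p = 0.0461) relative to Ac-GlcNAc, and that call was lost whichever array was omitted (adjusted p = 0.0754 to 0.189). PDIA4 differed by 0.43 (0.16 to 0.70, adjusted p = 0.0971), SDF2L1 by 0.35 (0.14 to 0.56, adjusted p = 0.0822), HERPUD1 by 0.36 (0.13 to 0.58, adjusted p = 0.0965) and DNAJC3 by 0.39 (0.11 to 0.67, adjusted p = 0.162), and none of these passed in this fit. HERPUD1 passed after cyclic loess (adjusted p = 0.0472) and with trend and robust options (0.047), SDF2L1 and DNAJC3 with array SD as a covariate (0.0263 and 0.0239), where EDEM3 did not, and PDIA4, SDF2L1 and DNAJC3 with array weights (0.00665, 0.00989 and 0.0457). HSPA5 differed by 0.21 (-0.03 to 0.45), SELENOS by 0.26 (-0.02 to 0.54) and SEL1L by 0.11 (-0.07 to 0.30). For DNAJB9 the difference was -0.20 (-0.46 to 0.05), and XBP1 and ATF6 differed by -0.10 (-0.32 to 0.11) and -0.06 (-0.26 to 0.15). The median over the members was 0.11 (0.06 without Ac-4-deoxy-GlcNAc replicate 3), beside 0.00 over all probe sets, and 25 of 35 differences were positive, beside 50.9%. In 21 of 35 members the group means ran from Ac-4-deoxy-GlcNAc through Ac-GlcNAc to untreated from high to low, an order that includes differences within the spread of the arrays. The share of all probe sets in that order was not counted, so the 21 have no background to stand beside.

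**Figure D3:**
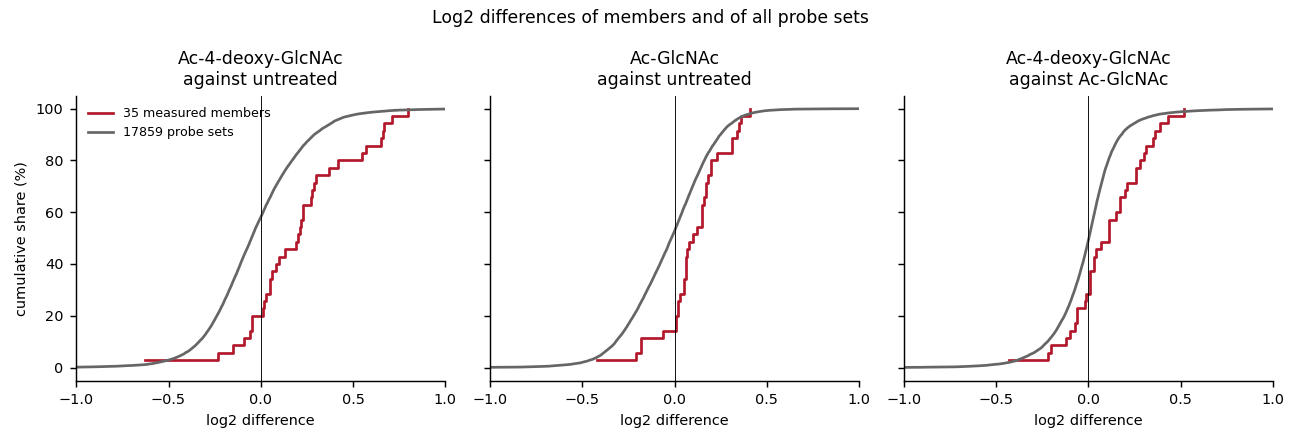
Cumulative share (vertical axis, percent) of log2 differences (horizontal axis) of the 35 measured members (red) and of all 17859 probe sets (grey) in the 3 comparisons. The red line lies to the right of the grey over most of its length in each panel, with medians of 0.20, 0.10 and 0.11 against -0.05, -0.02 and 0.00.

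Other genes of the ER stress network, outside the list above, were compared in the same fit, here first for Ac-4-deoxy-GlcNAc and untreated cells. Beside the 11.0% of all probe sets called in that comparison, the shares called were 14.3% in the PERK and ATF4 arm, 15.4% of further folding enzymes, 12.5% of further ERAD genes and 14.3% of vesicle genes, all near that background. In the PERK and ATF4 arm 2 of 14 measured genes rose and 0 fell. Its median difference was 0.24 and 11 of the 14 were positive, beside -0.05 and 41.9% for all probe sets. By limma 7 of the 14 had an unadjusted p under 0.05, beside 31.2%. The medians of further folding, ERAD and vesicle genes were -0.01, -0.01 and 0.01. TRIB3, a pseudokinase induced by ATF4, had levels of 7.52, 7.56 and 7.67 with Ac-4-deoxy-GlcNAc, 7.41, 7.36 and 7.18 with Ac-GlcNAc, and 6.98, 7.06 and 7.03 in untreated cells, with no overlap between the groups. TRIB3 exceeded the untreated level 1.47-fold (log2 0.55, SE 0.10, adjusted p = 0.00427). NUPR1, a stress-induced chromatin protein, rose by 0.45 (SE 0.12, adjusted p = 0.0347), a call kept in 2 of the 6 fits that omit an array. CHAC1, a glutathione-degrading enzyme, differed by 0.44 (adjusted p = 0.0565) and DDIT3, the stress factor CHOP, by 0.42 (95% interval 0.13 to 0.72), neither of which passed. ATF4 mRNA differed by 0.21 (-0.08 to 0.51), EIF2AK3 by 0.07 (-0.19 to 0.33), ATF3 by -0.19 (-0.43 to 0.04) and PPP1R15A, which reverses the translation block, by 0.06 (-0.17 to 0.29).

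Among 26 further folding enzymes, 3 rose and 1 fell with Ac-4-deoxy-GlcNAc against untreated. FKBP11, a prolyl isomerase of secretory cells, had levels of 7.47, 7.08 and 7.54 with Ac-4-deoxy-GlcNAc, 6.77, 6.82 and 6.54 with Ac-GlcNAc, and 6.71, 6.63 and 6.58 in untreated cells. Its Ac-4-deoxy-GlcNAc arrays were above all others, 1.65-fold higher than untreated (log2 0.72, SE 0.13, adjusted p = 0.00431) and 1.57-fold higher than Ac-GlcNAc (log2 0.65, adjusted p = 0.0155, kept in 3 of 6 fits that omit an array). ERP44 and TXNDC11, of the thioredoxin fold family, rose by 0.39 and 0.36, and the isomerase FKBP7 fell by 0.61 (SE 0.10, adjusted p = 0.00427). Of 24 further ERAD genes 1 rose, the ligase RNF185 (0.47, adjusted p = 0.0334, and 0.30 with adjusted p = 0.0757 without untreated replicate 2), and 2 fell, the chaperone BAG6 by 0.33 and MAN1B1 by 0.41 (adjusted p = 0.0273). MAN1B1, an ER mannosidase that like the EDEM proteins trims N-glycans, was lower as well relative to Ac-GlcNAc (-0.51, 95% interval -0.74 to -0.28, adjusted p = 0.0233), with levels of 7.19, 7.29 and 7.36 under Ac-4-deoxy-GlcNAc against 7.94, 7.78 and 7.65 under Ac-GlcNAc. Of these calls those of FKBP11 and FKBP7 relative to untreated held on omitting any array, and those of the other genes were kept in 1 or 2 of the 6 such fits.

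Of 21 genes of COPII and COPI vesicles, LMAN1 rose by 0.39 (adjusted p = 0.026), and SEC13 and MCFD2 fell by 0.31 and 0.34 (adjusted p = 0.0334 and 0.046) with Ac-4-deoxy-GlcNAc against untreated. LMAN1 and MCFD2 form 1 cargo receptor. The LMAN1 call was kept in 4 of the 6 fits that omit an array, and those of SEC13 and MCFD2 in 1 each. Of 18 further genes of the translocon, signal peptidase and signal recognition particle and 10 genes for ATF6 processing and IRE1 signalling, 0 were called by limma in any of the 3 comparisons. For Ac-4-deoxy-GlcNAc against untreated, 4 of the 18 and 1 of the 10 had an unadjusted p under 0.05, beside 31.2% of all probe sets. In that comparison the 18 had a median of 0.16 with 14 positive differences, and the 10 had -0.02 with 4 positive. Among these other lists the calls between the compounds were FKBP11 and MAN1B1. With Ac-GlcNAc against untreated 0 were called, with 0 to 6 per list at an unadjusted p under 0.05 by limma, beside 26.4% of all probe sets. Positive differences with Ac-GlcNAc were found for 13 of 14 PERK arm, 20 of 26 folding and 18 of 24 ERAD genes. They were also found for 17 of 18 translocon, 16 of 21 vesicle and 7 of 10 ATF6 and IRE1 genes, beside 47.3% of all probe sets.

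**Figure D4:**
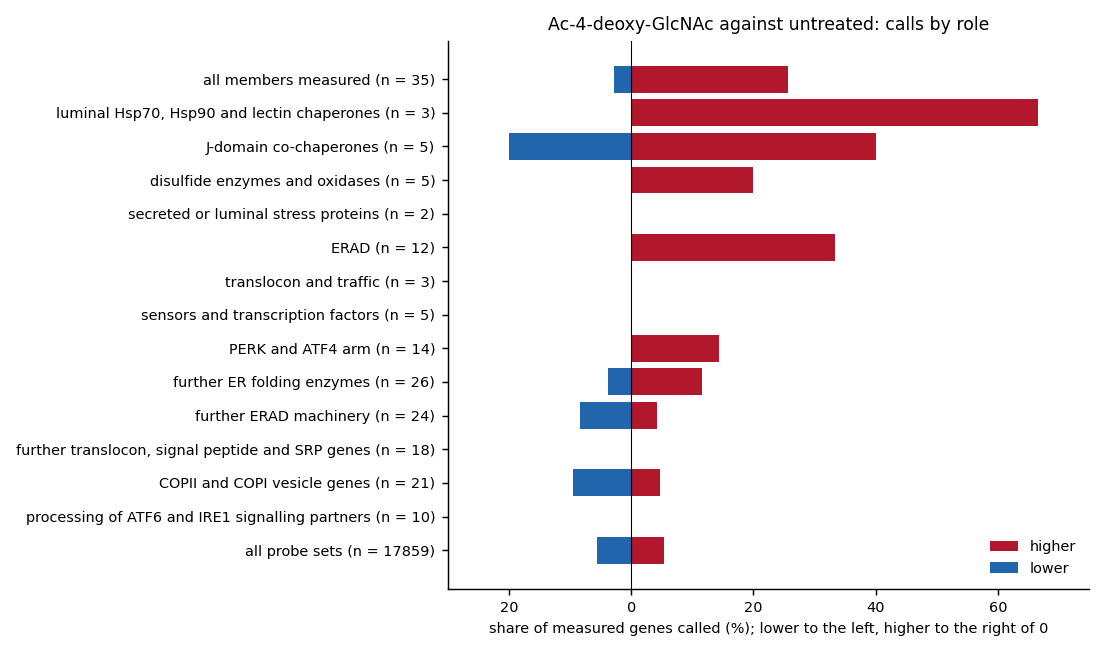
Share of measured genes called (horizontal axis, percent) for Ac-4-deoxy-GlcNAc against untreated, with higher calls right and lower calls left of 0, by role and list (rows). The 35 members had 9 higher and 1 lower, and the 17859 probe sets had 960 higher and 1008 lower.

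The promoter elements were looked for in all 39 members with a RefSeq window on GRCh38.p14 (47 windows, since some genes have several starts), on both strands. DERL1, DERL3 and PDIA3 were not among them. An ERSE stood in 8 of 39 members (20.5%), beside 0.0916% of all 27305 genes with a window, and an ERSE-II in 3 of 39 (7.69%), beside 0.0696%. Together 11 of 39 members (28.2%) held either, which is 11 of the 44 such genes in the whole table. The elements were first described in genes of this family, so the share is a description of known targets. The core TGACGTG of the unfolded protein response element stood in 4 of 39 (10.3%, beside 2.40%), in HYOU1 overlapping the ERSE-II at -185, and the ATF4 core TGATGNAA in 2 of 39 (5.13%, beside 4.46%).

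Of all probe sets 5.38% were called higher and 5.64% lower in the comparison used here. Of the 9 measured members with an ERSE or ERSE-II, 4 rose with Ac-4-deoxy-GlcNAc relative to untreated cells, those printed above, and all 9 differences were positive (0.05 to 0.71, median 0.30). The 5 not called were CALR, PDIA6, ERO1B, CRELD2 and XBP1. Of the 24 measured members with a window but neither element, 5 were called higher (DNAJC3, PDIA4, DERL2, SELENOS and SEL1L) and 1 lower (DNAJB9), with a median of 0.07 and differences from -0.63 to 0.80. A positive difference was found for 17 of these 24, beside 41.9% of all probe sets. XBP1, with an ERSE at -52 to -34, had a difference of 0.05. A match is a match of letters, and whether a factor was bound was not measured.

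**Figure D5:**
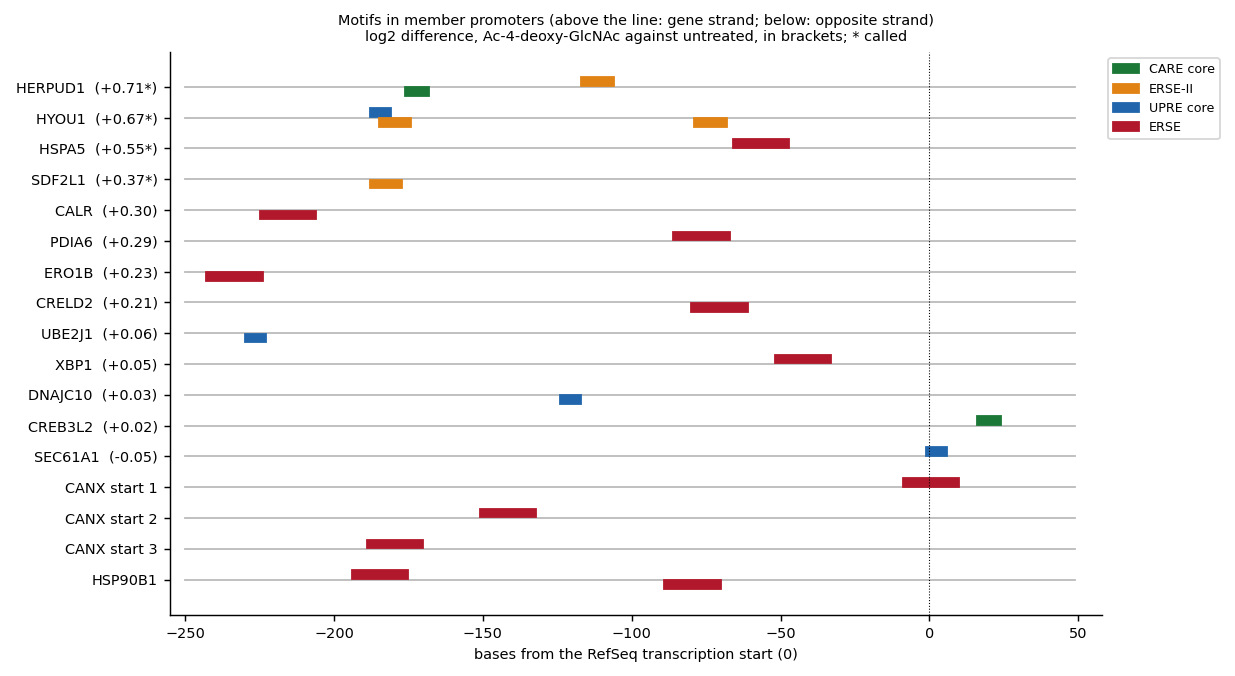
Positions of 4 motifs (coloured bars) in the promoters of members that hold any of them, in bases from the RefSeq start (horizontal axis). Rows run from the largest to the smallest log2 difference of Ac-4-deoxy-GlcNAc against untreated, given in brackets with a star where called, and unmeasured genes are last. The 4 starred genes, HERPUD1, HYOU1, HSPA5 and SDF2L1, are the top rows, and each holds an ERSE or ERSE-II upstream of the start. DNAJC3, with the largest difference of all members, and PDIA4, DERL2, SELENOS, SEL1L and DNAJB9 were also called. They hold none of the 4 motifs and are not shown.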

How the data were processed

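Gene expression was measured on 9 arrays of SKOV3 cells, grouped and numbered by their titles. The deposited values are log2 signals per probe set, which the authors obtained through RMA (Partek, build hg18), per the submitters' processing notes; versions, settings and filters are not given in the sources used here. All columns of the table were used (0 left out).

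Members and lists were chosen with earlier results of these data known. Genes were named through the platform annotation, with symbols updated by gene identifier. All 17859 probe sets of the 9 arrays entered 1 limma 3.58.1 fit in R 4.3.3 (lmFit, eBayes, group as the only term, 6 residual degrees of freedom). Two-sided p-values of each contrast were adjusted by Benjamini-Hochberg across the full table, and they measure the spread between flasks. Log2 differences had a median standard error of 0.11, since precision is limited by the number of arrays. The fit was tested on simulated data.

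Values on each array are given for members called in any comparison and for HSPA5, HERPUD1, DNAJB9, XBP1, ATF6 and ERN1, and HSP90B1 was meant to join them but was not measured alone. Of the other lists, up to 3 called genes per comparison and fixed PERK arm genes are named. BAG6, TXNDC11 and single marker genes were named after their values were seen. Promoters and gene names came from RefSeq GRCh38.p14, whose build differs from that of the arrays. Motif positions were found by exact letters. Protein ends, planned with the other choices, were not analysed here. Alternatives were a replicate block, cyclic loess, median centring, a filter at the 25th percentile, trend and robust options, array weights, array SD as a covariate, the 6 compared arrays and leaving out each array.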

Additional observations from a re-analysis of the deposited data

How the results depend on the processing

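Of the 10 members called with Ac-4-deoxy-GlcNAc against untreated, all 10 were also called with cyclic loess, median centring, the 25th percentile filter, trend and robust options and array weights (10 to 14 called in all), and 9 in the 6 compared arrays alone. With array SD as a covariate 4 were called, DNAJC3, HERPUD1, HYOU1 and SEL1L. That SD was 2.075 to 2.165 for the Ac-4-deoxy-GlcNAc group and 1.92 to 2.082 for the untreated group. The other 6 kept their direction, with differences of 0.61 for DERL2, 0.53 for PDIA4, 0.50 for SELENOS, 0.38 for HSPA5, 0.26 for SDF2L1 and -0.55 for DNAJB9, and adjusted p from 0.053 to 0.165. Leaving out 1 array gave 7 to 12 calls, and 7 of the 10 members stayed called in each of those fits. For Ac-GlcNAc against untreated the count of 0 became 7 with array weights and 0 to 1 with an array left out. Between the compounds the count of 2 was 1 with median centring, 8 with array weights and 0 to 1 with an array left out. No member changed sign, under these settings, in a comparison in which it was called. Outside calls, sign changes were more common. For Ac-GlcNAc against untreated they occurred in 11 members with cyclic loess, 11 with the SD covariate and 9 with array weights. For Ac-4-deoxy-GlcNAc against untreated they occurred in 6 with cyclic loess and 7 with the SD covariate. SDF2L1 was among those with Ac-GlcNAc against untreated. There its difference of 0.02 was -0.04 with array weights and -0.14 with the SD covariate. It was -0.05 without untreated replicate 2 and -0.02 without Ac-GlcNAc replicate 3. With the replicate number as a block the member counts were 10, 0 and 3, PDIA4 being added between the compounds (adjusted p = 0.0426). The numbers share no stated origin: 3 of 9 same-numbered pairs had a correlation of deviations over 0.1 (range -0.245 to 0.369), and an array correlated best with its own number in 5 of 18 cases. The block moved the count over all probe sets with Ac-GlcNAc from 79 to 324. Over all probe sets, the 1968 called with Ac-4-deoxy-GlcNAc against untreated became 596 with the SD covariate, 818 in the 6 compared arrays and 604 to 3076 with an array left out. The 79 with Ac-GlcNAc became 47 with cyclic loess, 32 with median centring, 141 with trend and robust options, 1760 with array weights, 2 with the SD covariate, 48 in the compared arrays and 4 to 1359 with an array left out. The 425 between the compounds became 1187 with array weights and 141 to 493. The PERK arm count of 2 was 5 with the filter, 5 with trend and robust options, 4 with array weights, and 1 with cyclic loess, the SD covariate or the compared arrays. The counts of further folding, ERAD and vesicle genes, 4, 3 and 3, were 2, 1 and 1 with the SD covariate and 2, 0 and 0 in the compared arrays, ERAD was 5 with cyclic loess and vesicle genes 5 with trend and robust options. With an array left out these 4 lists gave 1 to 5, 2 to 6, 0 to 3 and 0 to 5 calls. For Ac-GlcNAc against untreated, array weights gave 3, 3, 2 and 4 calls in them in place of 0. The cause of these changes was not tested. Signal over background could not be assessed, which limits members with low values such as DNAJB9, SDF2L1 and DERL3.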
